A study of Mus musculus with 6 samples.

Results

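Collagens and the enzymes that process them build the fibres of the stromal matrix. The genes described here were every symbol on the array made of COL, a number, A and a number, together with LOX, LOXL1, LOXL2, LOXL3, LOXL4, P4HA1, P4HA2, P4HB, PLOD1, PLOD2, PLOD3, SERPINH1, PCOLCE, BMP1 and LEPRE1. They came to 55 of the 30854 gene names on the array, 40 collagen chains and 15 processing genes, read by 117 of its 45281 probes. RNA came from confluent monolayers of PA6, a mouse stromal cell line, kept for 3 h without serum. The groups were cells without growth factors (-GFs), cells given 20 ng/ml FGF2 and cells given 10 ng/ml BMP4. Each group had 2 arrays, and each biological replicate held 1 well of every group, so that arrays with the same replicate number form a set. The comparisons ask what each factor does to stromal gene expression on its own, before any co-culture. Signal is the mean bead intensity of a probe, and the median intensity over all probes lay between 153.4 and 168.1 on the 6 arrays. Between 15509 and 16459 probes were detected per array, that is, brighter than the negative control beads at a detection p under 0.05. The lowest intensity detected was between 180.1 and 200.9. Precision is limited by the small number of arrays.

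Collagen chains are made in the endoplasmic reticulum, where prolyl and lysyl residues are hydroxylated, some hydroxylysines carry sugars, and 3 chains wind into a triple helix that the chaperone HSP47 (SERPINH1) holds folded. After secretion, BMP1 with its enhancer PCOLCE trims the C-propeptides of the fibrillar procollagens, and lysyl oxidases (LOX and its relatives) oxidize lysines so that the molecules in a fibre become crosslinked. Stromal cells of the bone marrow lay down fibrillar collagens, beaded filaments of type VI and basement membrane chains as the matrix on which other cells sit.

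The marker genes were those of stromal cells. All 10 stromal markers searched (VIM, PDGFRA, PDGFRB, THY1, CXCL12, LUM, COL1A1, COL1A2, COL3A1 and S100A4, of which 3 are collagens) were detected on all 6 arrays, CXCL12 with the brightest probe in the mean over the arrays but not on each. Their summed intensity was 111766.2 and 89888.8 in -GFs replicates 1 and 2, 76752.4 and 70449.8 with FGF2, and 88426.9 and 92268.5 with BMP4. It was lower on both FGF2 arrays than on the other 4, and its part in the FGF2 values was not tested. Markers of other lineages were mostly at background. PECAM1, CDH5 and TIE1 (endothelial), PTPRC, CD68, EMR1 and ITGAM (blood cells), EPCAM, KRT8 and KRT18 (epithelial) and NANOG, SOX2 and ZFP42 (pluripotent) were detected on 0 arrays. TEK, CDH1 and POU5F1 were detected on all 6 arrays, KDR on 4 and CSF1R on 5, each at intensities near the detection limit, such as 194.4 to 248.4 for POU5F1. Summed intensities ran from 859.7 to 1167.3 for the 5 endothelial genes, from 774.2 to 845.6 for the 5 blood cell genes, from 611 to 682.7 for the 4 epithelial genes and from 630.8 to 722.5 for the 4 pluripotent genes. Of 5 osteoblast genes, 4 were on the array, IBSP and RUNX2 were detected nowhere, and the sum, led by ALPL, ran from 625 to 826.3. Of 6 chondrocyte genes, SOX9 and the collagen chain COL2A1 were detected on all 6 arrays while ACAN, COL10A1 and MATN1 were not detected, and the sum, led by SOX9, ran from 21677.2 to 28360.5. Known targets of each factor were looked up as a check of the treatments, and were chosen after their values were seen. EGR1, an early response gene of growth factor signalling, rose with FGF2 by 4.19 on the log2 scale (limma adjusted p = 0.00459), and ID1, a direct target of BMP signalling, rose with BMP4 by 2.77 (adjusted p = 0.00945).

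The replicates of a group were not alike in their adipocyte genes. ADIPOQ, the fat cell hormone adiponectin, had intensities of 156, 158 and 149 on the replicate 1 arrays of -GFs, FGF2 and BMP4, where it was not detected, and of 2454, 1658 and 2372 on the replicate 2 arrays. LPL (lipoprotein lipase), CFD (adipsin) and CIDEC (a lipid droplet protein) were also brighter on every replicate 2 array than on the replicate 1 array of the same group, with 635 against 240 for LPL in -GFs. Every treatment was present in both replicates, so that this difference lay across the groups and not along them. PLIN was detected on 2 arrays and FABP4 on none. PPARG, the regulator of fat cell formation, was the only gene of the list detected on all 6. It was the brightest of the 7 adipocyte genes in the mean over the arrays, but ADIPOQ was brighter in -GFs replicate 2. PPARG did not follow the others in -GFs, with 2602 in replicate 1 and 2134 in replicate 2, and was brighter in replicate 2 with FGF2 (2238 and 3037) and BMP4 (2278 and 3399). The summed intensity of the 7 genes was 3579.1, 3138.4 and 3167.8 on the replicate 1 arrays of -GFs, FGF2 and BMP4, and 6459.2, 6264.5 and 7944.7 on the replicate 2 arrays. In such bulk samples, fewer cells of a type and less RNA per cell cannot be told apart.

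**Figure D1:**
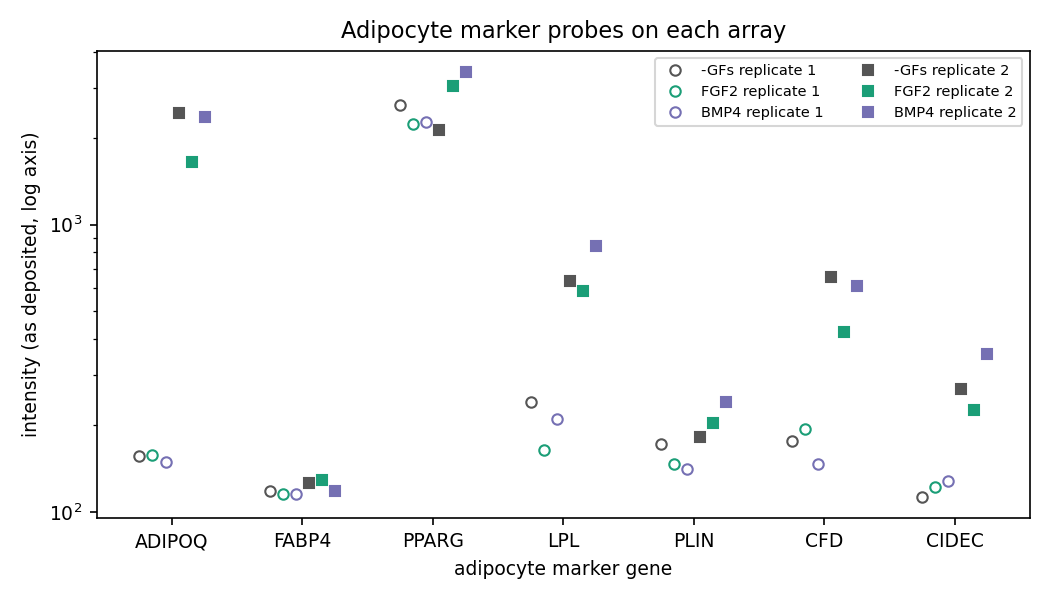
Intensity of the adipocyte markers on each of the 6 arrays, on a log scale, by group and replicate. ADIPOQ lies at 149 to 158 on the replicate 1 arrays and at 1658 to 2454 on the replicate 2 arrays.

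Most of the collagen machinery was detected in PA6 cells. A gene was tested when a probe of it was detected in some group on both of that group's arrays, and 41 of the 55 genes passed, 28 chains and 13 processing genes, among 11872 genes tested in all. Of these, 38 were detected on all 6 arrays by the probe tested. The 14 genes left out were COL4A3, COL4A4, COL7A1, COL8A2, COL9A1, COL9A3, COL10A1, COL13A1, COL19A1, COL22A1, COL24A1, COL25A1, LOXL2 and LOXL3, none of them above an intensity of 210.0. COL9A1 was detected on 2 arrays and COL7A1 on 1, and the other 12 on 0, so that nothing can be said of their response. The chains detected span the fibrillar collagens (10 genes), the basement membrane network (4), the beaded filaments (3), the FACIT chains that sit on fibrils (5), the multiplexins (2), the transmembrane collagens (2), the hexagonal network chain COL8A1 and COL28A1. The 5 genes with the brightest probes were the chaperone SERPINH1 at intensities of 37339 to 46728, COL6A1 at 31202 to 46751, the disulfide isomerase subunit of prolyl hydroxylase P4HB at 30585 to 43816, COL5A1 at 17794 to 22746 and the crosslinking enzyme LOXL1 at 14712 to 23946. Probe brightness also depends on the probe, so these values do not rank the RNAs.

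**Figure D2:**
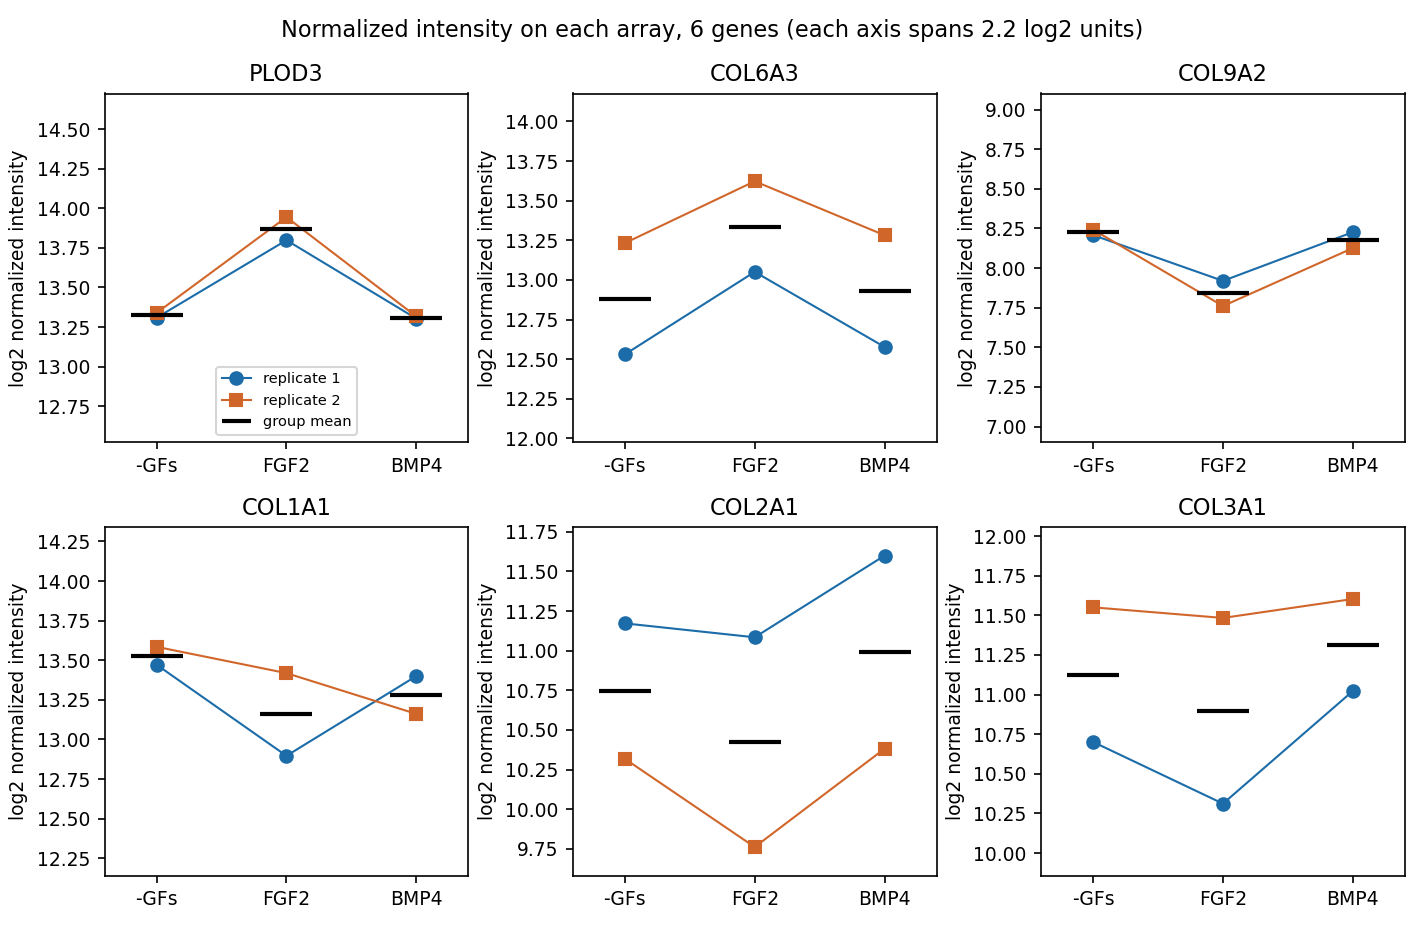
Normalized log2 intensity of PLOD3, COL6A3, COL9A2, COL1A1, COL2A1 and COL3A1 on each array, by group, with lines joining the arrays of a replicate and bars at the group means. PLOD3 lies between 13.80 and 13.94 on the FGF2 arrays and between 13.30 and 13.34 on the other 4.

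FGF2 against -GFs asks whether 3 h of FGF2 alters this machinery. Among the 41 genes, PLOD3 was higher with FGF2 and no gene was lower at an adjusted p under 0.1, while over all genes 6.03% were higher (716) and 5.77% lower (685). Changes in the 41 genes were small, with a median size of 0.15 on the log2 scale against 0.24 over all genes tested. At an unadjusted p under 0.05 limma gave 2 of the 41 genes (COL9A2 and PLOD3) and limma with arrays paired by replicate (the replicate block) 6, against 2768 (23.3%) and 4824 (40.6%) of all genes. None passed the additional limit of an absolute log2 change over 1, which 419 genes (3.53%) passed in either direction.

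PLOD3, lysyl hydroxylase 3, hydroxylates collagen lysines and adds glucose to the sugars they carry. Its normalized log2 intensity was 13.31 and 13.34 in -GFs replicates 1 and 2, 13.80 and 13.94 with FGF2, and 13.30 and 13.32 with BMP4. Both FGF2 arrays lay above the other 4, without overlap. The group means were 13.32 ± 0.02 for -GFs, 13.87 ± 0.10 for FGF2 and 13.31 ± 0.01 for BMP4 (SD, n = 2 each). PLOD3 rose with FGF2 by 0.55 on the log2 scale (SE 0.14, 95% confidence interval 0.21 to 0.89), or 1.46-fold, with an adjusted p of 0.0749 in limma, and by 0.49 and 0.60 in replicates 1 and 2. When arrays were paired by replicate, through a block term, the adjusted p was 0.00576, and over the alternatives it ran from 0.00576 to 0.355. The call was lost without any single array, at 0.181 and 0.199 without -GFs replicates 1 and 2, 0.218 and 0.355 without FGF2 replicates 1 and 2, and 0.116 and 0.12 without BMP4 replicates 1 and 2, and it was also lost with neqc (0.169) and median scaling (0.166). With the block the call was kept in every setting run, at 0.00467 to 0.065, leaving out each array included. A further PLOD3 probe was detected on 2 arrays only and was not tested.

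The bases before the PLOD3 start are shown as a short stretch because the neighbouring gene ZNHIT1, on the other strand, has a start inside them in the RefSeq annotation (build GRCm38.p6). The stretch lies at chr5:136986952-136986981 on the plus strand, before the start at 136987019, and the capitals mark ACGTG, the core of hypoxia response elements, with its first base at -54:
PLOD3: gcttgaagtcattACGTGatgttcccttgg
ZNHIT1, picked for its position after its values were seen, measured -0.14 on the log2 scale with FGF2 (adjusted p = 0.742). Outside the stretch shown, the 250 bases before the PLOD3 start also hold CCAAT on the minus strand, with its first base at -188. A match to such letters is a description and shows no bound factor.

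COL6A3, the long chain that completes the type VI collagen molecule, had log2 intensities of 12.53 and 13.23 in -GFs replicates 1 and 2, 13.05 and 13.62 with FGF2, and 12.58 and 13.28 with BMP4. The FGF2 value was above the -GFs value within each replicate, by 0.52 and 0.39, although the groups overlap because replicate 2 was higher throughout. The mean with FGF2 was 13.34 ± 0.40 against 12.88 ± 0.50 in -GFs (SD, n = 2 each), a difference of 0.46 or 1.37-fold (95% confidence interval -0.35 to 1.26). It did not pass without the pairing of replicates (limma adjusted p = 0.474) and passed with the replicate block (adjusted p = 0.0179, 95% confidence interval 0.17 to 0.75), with 0.0179 to 0.966 over the alternatives. The blocked call was lost with median scaling (0.117), without -GFs replicate 1 (0.122) and without FGF2 replicate 1 (0.103). A further COL6A3 probe, detected on 4 arrays, measured -0.40 (adjusted p = 0.465, and 0.0671 with the block), so that the gene's probes differ in direction and their mean was 0.03. The 250 bases before its start, at chr1:90843972-90844221 on the minus strand, are shown because the gene was called with the block, and they hold none of the motifs searched:
COL6A3: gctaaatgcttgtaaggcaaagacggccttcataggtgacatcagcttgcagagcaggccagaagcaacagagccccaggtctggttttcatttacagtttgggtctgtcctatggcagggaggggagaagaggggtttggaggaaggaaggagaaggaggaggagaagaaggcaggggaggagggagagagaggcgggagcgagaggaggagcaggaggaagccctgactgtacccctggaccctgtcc

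COL9A2, a chain of type IX collagen, which decorates the surface of fibrils, was dim, at intensities of 214 to 336. Its log2 values were 8.21 and 8.24 in -GFs, 7.92 and 7.76 with FGF2, and 8.23 and 8.13 with BMP4. Both FGF2 arrays lay below the other 4. The means were 8.23 ± 0.02 in -GFs, 7.84 ± 0.11 with FGF2 and 8.18 ± 0.07 with BMP4 (SD, n = 2 each), and the difference of -0.39 with FGF2 (0.766-fold, 95% confidence interval -0.73 to -0.04) had an adjusted p of 0.172. With the replicate block the adjusted p was 0.043, with values of -0.29 and -0.48 in the replicates and a range of 0.043 to 0.529 over the alternatives. Without -GFs replicate 2 and without FGF2 replicate 2 the blocked value was 0.321 and 0.214. With neqc, a normalization that also takes off the background, the difference was -0.78 (adjusted p = 0.0287 with the block). With median scaling it was -0.45 (0.027 with the block). These combinations are outside the range given. The bases before its start, at chr4:121039316-121039565 on the plus strand, hold GGGCGG once on each strand (capitals), which is the letter pattern bound by SP1, with first bases at -26 and -14:
COL9A2: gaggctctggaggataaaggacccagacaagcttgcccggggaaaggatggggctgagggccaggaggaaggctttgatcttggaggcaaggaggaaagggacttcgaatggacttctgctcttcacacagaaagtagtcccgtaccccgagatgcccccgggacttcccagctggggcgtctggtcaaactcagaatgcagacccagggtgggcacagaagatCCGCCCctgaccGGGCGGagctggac

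COL1A1, a chain of type I collagen, the main fibrillar collagen of connective tissue, measured 13.47 and 13.58 in -GFs, 12.90 and 13.42 with FGF2, and 13.40 and 13.16 with BMP4. The FGF2 values were below the -GFs value in each replicate, by more in replicate 1 (-0.57) than in replicate 2 (-0.17). The means were 13.53 ± 0.08 in -GFs and 13.16 ± 0.37 with FGF2 (SD, n = 2 each), with a difference of -0.37 (0.774-fold, 95% confidence interval -0.87 to 0.13) and an adjusted p of 0.341. The replicate block gave 0.0965, under the threshold, and the alternatives ran from 0.0965 to 0.855. That call was lost with the block and quantile normalization (0.116) or neqc (0.278), without -GFs replicate 1 (0.247) or 2 (0.201) and without FGF2 replicate 1 (0.792), and without FGF2 replicate 2 it was 0.00354.

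In all, pairing the arrays by replicate in the block called 2 of the 41 genes higher with FGF2 (PLOD3 and COL6A3) and 2 lower (COL1A1 and COL9A2). The same block called 18.1% of all genes higher (2153) and 19.6% lower (2326), so the share of the 41 genes called was below that of all genes in each direction. Under median scaling the blocked counts were 1 higher (PLOD3) and 5 lower (COL1A1, COL1A2, COL2A1, COL9A2 and PCOLCE). Without the block, that scaling also moved the calls over all genes towards lower, to 502 higher and 910 lower. The shares over all genes with both are not given, so these counts are no result about the 41 genes. COL2A1 measured -0.32 with FGF2 (adjusted p = 0.774, and 0.112 with the block), and with the block it was called lower under median scaling (0.0592), without -GFs replicate 1 (0.0473) and without FGF2 replicate 1 (0.0484). Its further probes measured -0.47 (0.0332 with the block) and -0.07 (0.767). The blocked counts of higher and lower genes also changed when single arrays were left out. No shares over all genes are given for those fits, so the counts are no result about the 41 genes. COL4A1 and COL4A2, the chains of the common basement membrane collagen, measured 0.34 and 0.23 with FGF2 (adjusted p = 0.64 and 0.633, and 0.117 and 0.245 with the block). Within the replicates COL4A1 measured 0.65 and 0.03 and COL4A2 0.46 and 0.01, so that no pair lay below 0 and replicate 1 gave nearly all of the difference. Without the pairing, leaving out -GFs replicate 1 turned the direction to -0.11 and -0.09. With the block, COL4A1 was called without -GFs replicate 2 (0.0669) and without FGF2 replicate 2 (0.00506).

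**Figure D3:**
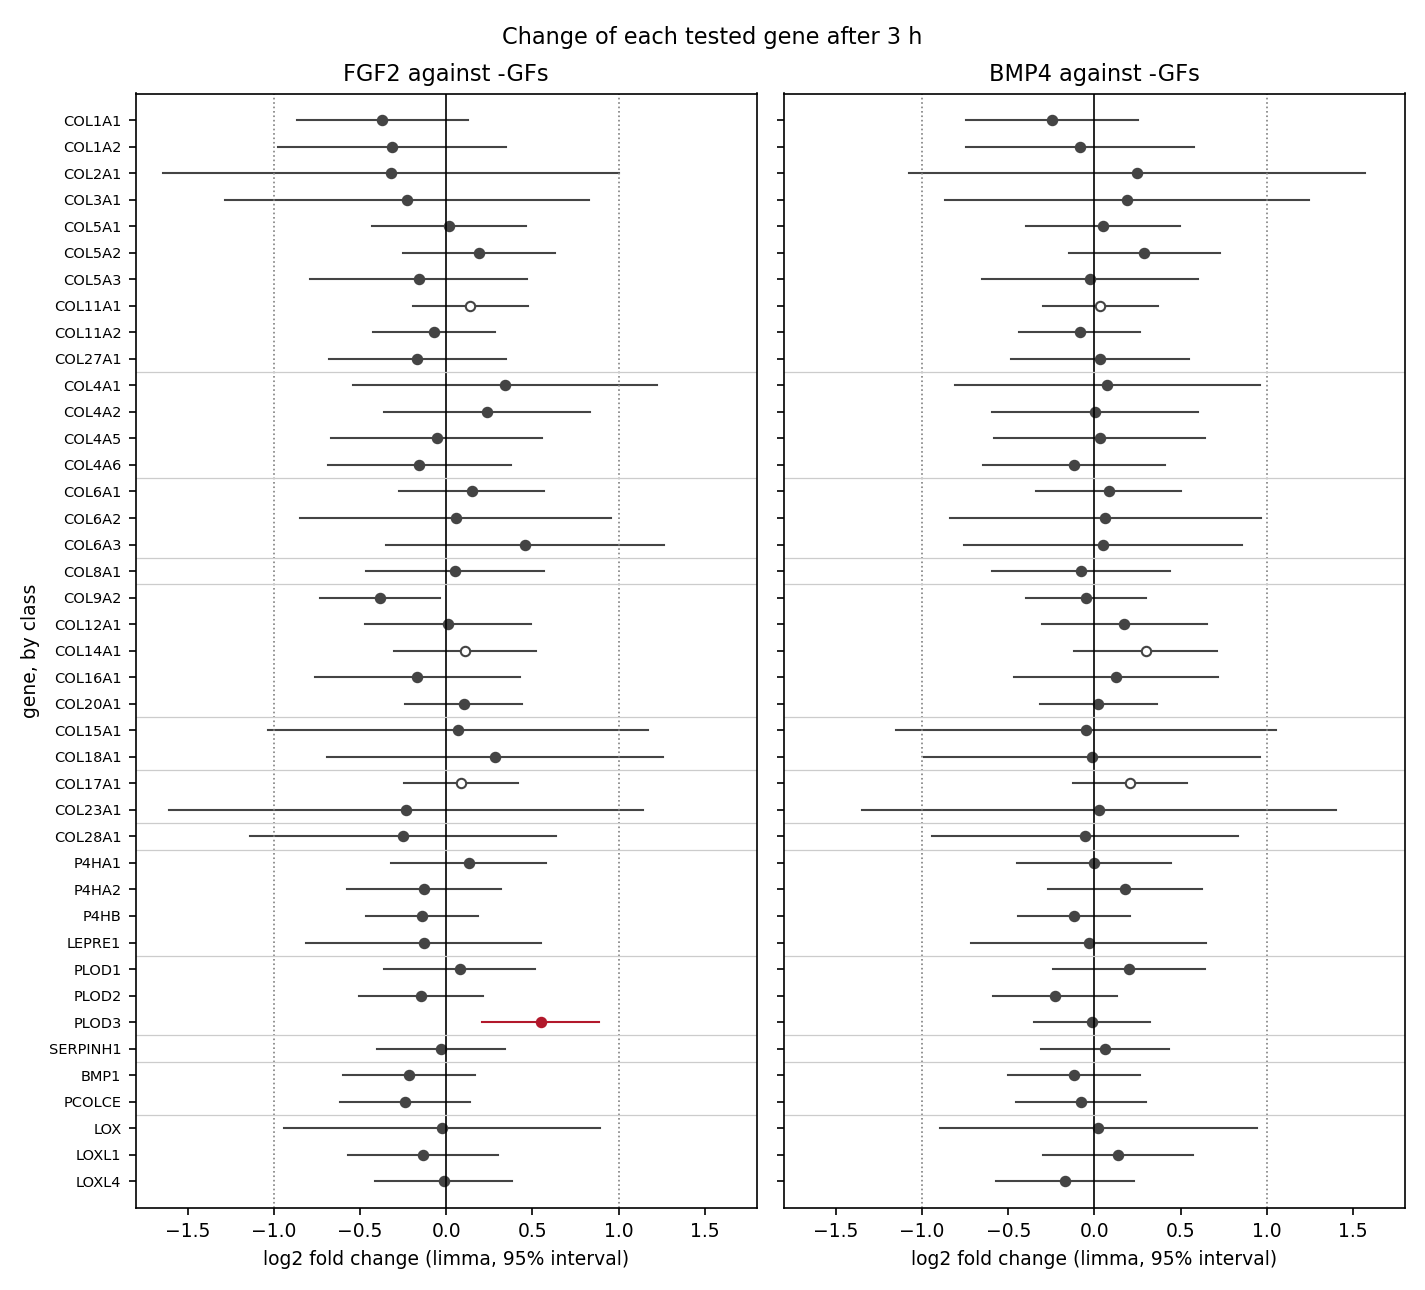
Log2 change of the 41 tested collagen and processing genes with FGF2 and with BMP4 against -GFs, with 95% confidence intervals from limma. The widest change among genes detected on all 6 arrays is 0.55 for PLOD3 with FGF2.

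By class, the FGF2 values are a description, and no difference between classes was tested. Of the 10 fibrillar chains, 3 measured above and 7 below -GFs, with a median of -0.16, and under median scaling 2 were above and 8 below (median -0.26). The 3 type VI chains all measured above -GFs (0.05 to 0.46, median 0.15), but 2 of them were below it under median scaling. Of the basement membrane chains 2 were above and 2 below under either scaling, with a median of 0.09 that was -0.01 under median scaling. The 5 FACIT chains had 3 above and 2 below, and 2 above and 3 below under median scaling. The 3 above include COL14A1 (0.11), which was detected in neither group, so its sign is that of background. Likewise the fibrillar chains above include COL11A1, which was not detected in -GFs. The 2 multiplexins were above (median 0.17), and 1 of them was below under median scaling. COL8A1 measured 0.05, and -0.02 under median scaling, and COL28A1 -0.25, and -0.32 under median scaling. Over the 41 genes 18 measured above and 23 below, with a median of -0.03 against -0.02 over all genes tested. Of the 38 detected on all 6 arrays, 15 were above and 23 below (median -0.06). Under median scaling 11 of the 41 genes were above and 30 below. That scaling moved the median of all genes by -0.08 and the split of all calls to 502 higher and 910 lower. Without the block, the 95% confidence interval lay within a 2-fold change either way for 33 of the 41 genes and for 76.8% of all genes. With the block it did so for all 41 genes and for 89.6% of all genes.

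The processing enzymes other than PLOD3 did not pass with FGF2. Of the prolyl hydroxylation genes, the catalytic subunits P4HA1 and P4HA2 measured 0.13 and -0.13 (adjusted p = 0.73 and 0.724), P4HB -0.14 (0.593) and the prolyl 3-hydroxylase LEPRE1 -0.13 (0.827). Prolyl 4-hydroxylase needs both kinds of subunit, and here its subunits measured on both sides of 0. The lysyl hydroxylases PLOD1 and PLOD2 measured 0.08 and -0.15 (0.839 and 0.622), beside the 0.55 of PLOD3. The chaperone SERPINH1 measured -0.03 (0.929). The procollagen proteinase BMP1 measured -0.22 (0.474) and PCOLCE -0.24 (0.417). Further BMP1 probes measured 0.00, -0.04 and 0.01, so that the BMP1 value rests on its brightest probe. Those of the other enzymes above measured 0.12 for P4HA1, 0.11 for P4HA2, -0.01 and 0.05 for LEPRE1, 0.03 for PLOD2 and 0.03 for SERPINH1. The crosslinking enzymes LOX, LOXL1 and LOXL4 measured -0.02, -0.14 and -0.02 (0.98, 0.708 and 0.969). All 13 processing genes had a 95% confidence interval within a 2-fold change either way.

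BMP4 against -GFs asks the same of BMP4, a ligand of the TGF-beta family. No gene of the 41 passed in either direction, while 0.00842% of all genes were higher (1 gene, ID1) and 0% lower. At an unadjusted p under 0.05 limma gave 0 of the 41 genes and limma with the block 0, against 215 (1.81%) and 836 (7.04%) of all genes. The block, which pairs the arrays by replicate, also called 0 of the 41, against 0.168% of all genes higher and 0.059% lower. The median size of the change was 0.08 on the log2 scale for the 41 genes and 0.11 over all genes. Among the 38 genes detected on all 6 arrays, values ran from -0.25 for COL1A1 to 0.29 for COL5A2, a chain of type V collagen, which sets the width of type I fibrils. A further COL5A2 probe measured 0.01. Without the block, the 95% confidence interval lay within a 2-fold change either way for 37 of the 41 genes and for 94.0% of all genes. With the block it did so for all 41 genes and for 99.8% of all genes. Of the 41 genes, 23 measured above and 18 below -GFs (median 0.02), and 11 above and 30 below under median scaling. Of the 38 detected on all 6 arrays, 20 were above and 18 below (median 0.01). For the enzymes, the values were 0.00 for P4HA1, 0.18 for P4HA2, -0.12 for P4HB, -0.03 for LEPRE1, 0.20 for PLOD1, -0.23 for PLOD2, -0.01 for PLOD3, 0.06 for SERPINH1, -0.12 for BMP1, -0.08 for PCOLCE, 0.02 for LOX, 0.14 for LOXL1 and -0.17 for LOXL4, each with an adjusted p of 0.999.

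FGF2 against BMP4 asks where the factors differ directly. The -GFs arrays enter it through the spread, which limma estimates over all 3 groups. PLOD3 was higher with FGF2 and no gene was lower, against 4.84% and 4.22% of all genes. The PLOD3 difference was 0.56 (1.475-fold, 95% confidence interval 0.22 to 0.90), with a limma adjusted p of 0.0789. With the block it was 0.00552, and 0.00235 to 0.0962 over the settings run with the block, so that it was kept in each. Over the alternatives it ran from 0.00552 to 0.387, and without the block leaving out single arrays gave 0.103 and 0.108 without -GFs replicates 1 and 2, 0.243 and 0.387 without FGF2 replicates 1 and 2, and 0.236 and 0.261 without BMP4 replicates 1 and 2. At an unadjusted p under 0.05 limma gave 1 of the 41 genes and limma with the block 6, against 2525 (21.3%) and 4504 (37.9%) of all genes.

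The block called 2 of the 41 genes higher with FGF2 than with BMP4 (PLOD3 and COL6A3) and 3 lower (COL2A1, COL3A1 and COL9A2), beside 16.3% and 17.9% of all genes. COL2A1, the fibrillar chain of cartilage, measured 11.17 and 10.32 in -GFs replicates 1 and 2, 11.08 and 9.76 with FGF2, and 11.60 and 10.38 with BMP4. Replicate 1 was higher in every group, and within each replicate FGF2 lay below BMP4. The difference was -0.57, with an adjusted p of 0.626 without the block and 0.00831 with it, in a range of 0.00147 to 0.102 over the settings run with the block, the 0.102 without FGF2 replicate 2. COL3A1, the type III chain laid down with type I, measured 10.70 and 11.55 in -GFs, 10.31 and 11.48 with FGF2, and 11.02 and 11.60 with BMP4. Here replicate 2 was higher in every group. Its difference was -0.41, with an adjusted p of 0.66 without the block and 0.054 with it (0.00572 to 0.586 over the settings run with the block), and the blocked value was 0.173 with neqc, 0.508 without FGF2 replicate 1 and 0.586 without BMP4 replicate 1. For COL6A3 the difference was 0.41 (0.558, and 0.0359 with the block) and for COL9A2 -0.34 (0.249, and 0.0829 with the block), with 0.0359 to 0.953 and 0.0829 to 0.642 over the alternatives. The further COL6A3 probe measured -0.01 here (0.959 with the block) and so did not show the difference, while the further COL2A1 probes measured -0.40 and -0.33 (0.0735 and 0.107 with the block). The further COL3A1 probe measured -0.27 and did not pass (0.199 with the block). The blocked COL6A3 call was lost with neqc (0.13), without FGF2 replicate 1 (0.173) and without BMP4 replicates 1 (0.237) and 2 (0.184). That of COL9A2 was lost with median scaling (0.114), without -GFs replicate 1 (0.102), without FGF2 replicates 1 (0.105) and 2 (0.326) and without BMP4 replicates 1 (0.341) and 2 (0.305).

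A few dim chains were detected in only some groups. COL11A1, a fibrillar chain, was detected on 0 -GFs arrays, 2 FGF2 arrays and 1 BMP4 array, and its FGF2 level was at least 1.06-fold above the detection limit of -GFs (adjusted p = 0.607). COL14A1, a FACIT chain, and COL17A1, a transmembrane collagen of hemidesmosomes, were detected on both BMP4 arrays and on 0 others. With BMP4 they were at least 1.05-fold and 1.01-fold above the -GFs limit (adjusted p = 0.999 for each). These genes passed the filter through the group in which they were bright, so their direction was set by the filter.

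For the chains, the median size of the mean difference between the replicates (0.29 on the log2 scale) was above that of the FGF2 difference (0.16). As a description with no test, replicate 2 lay above replicate 1 in all 3 groups and without overlap for 15 of the 41 genes, against 9.76% of all genes, and below it for 5, against 11.8%. The 15 were COL1A2, COL3A1, COL4A1, COL4A2, COL4A6, COL5A1, COL6A1, COL6A2, COL6A3, COL15A1, COL16A1, COL18A1, COL23A1, COL27A1 and LEPRE1, and the 5 were COL2A1, COL11A2, COL28A1, LOX and LOXL4. Both multiplexins, all 3 type VI chains and 3 of 4 basement membrane chains were thus brighter in replicate 2, also under median scaling. In the mean over the 3 groups the difference was largest for COL23A1, a transmembrane collagen, with 1.25, 1.16 and 1.18 in -GFs, FGF2 and BMP4. COL15A1 differed by 1.08, 0.73 and 0.99, COL3A1 by 0.85, 1.17 and 0.58 in its brighter probe, and COL18A1, the source of endostatin, by 0.97, 1.01 and 0.26. Of the others, COL6A2 differed by 1.11, 0.38 and 0.58 and COL4A1 by 0.91, 0.28 and 0.85. In the opposite direction COL2A1 differed by -0.85, -1.32 and -1.22, LOX by -0.89, -0.60 and -0.79 and COL28A1 by -0.74, -0.47 and -0.94. The count of 5 below is near the share over all genes, and LOXL1, also a crosslinking enzyme, differed by 0.27, 0.35 and 0.10.

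Over the 41 genes, the median size of the mean replicate difference was 0.23 against 0.17 over all genes. Of the 41 genes 10 exceeded 0.5 on the log2 scale, against 10.1% of all genes. The count above was 15 with quantile normalization and with neqc (9.68% of all genes in each), 13 with median scaling (5.42%) and 15 with the mean of the probes (10.3%). COL1A2 and COL27A1 dropped out with median scaling. With the mean of the probes COL27A1 dropped out and SERPINH1 came in. A further COL27A1 probe, detected on all 6 arrays, had a mean replicate difference of -0.04, against 0.26 for the brighter one. The count below was 5 with quantile normalization and with neqc (11.8% in each), 6 with median scaling (14.5%) and 7 with the mean of the probes (11.6%). Of the adipocyte genes, ADIPOQ, LPL, CFD and CIDEC were brighter in replicate 2 of every group and so moved with this difference. PPARG, the brightest in the mean over the arrays, was dimmer in replicate 2 of -GFs, and FABP4 was undetected. Of the 7 genes 1 was detected on all 6 arrays, and their sum was 3579.1 against 6459.2 in -GFs. Their part in the result was not tested. The labels give no date or lot for the replicates.

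**Figure D4:**
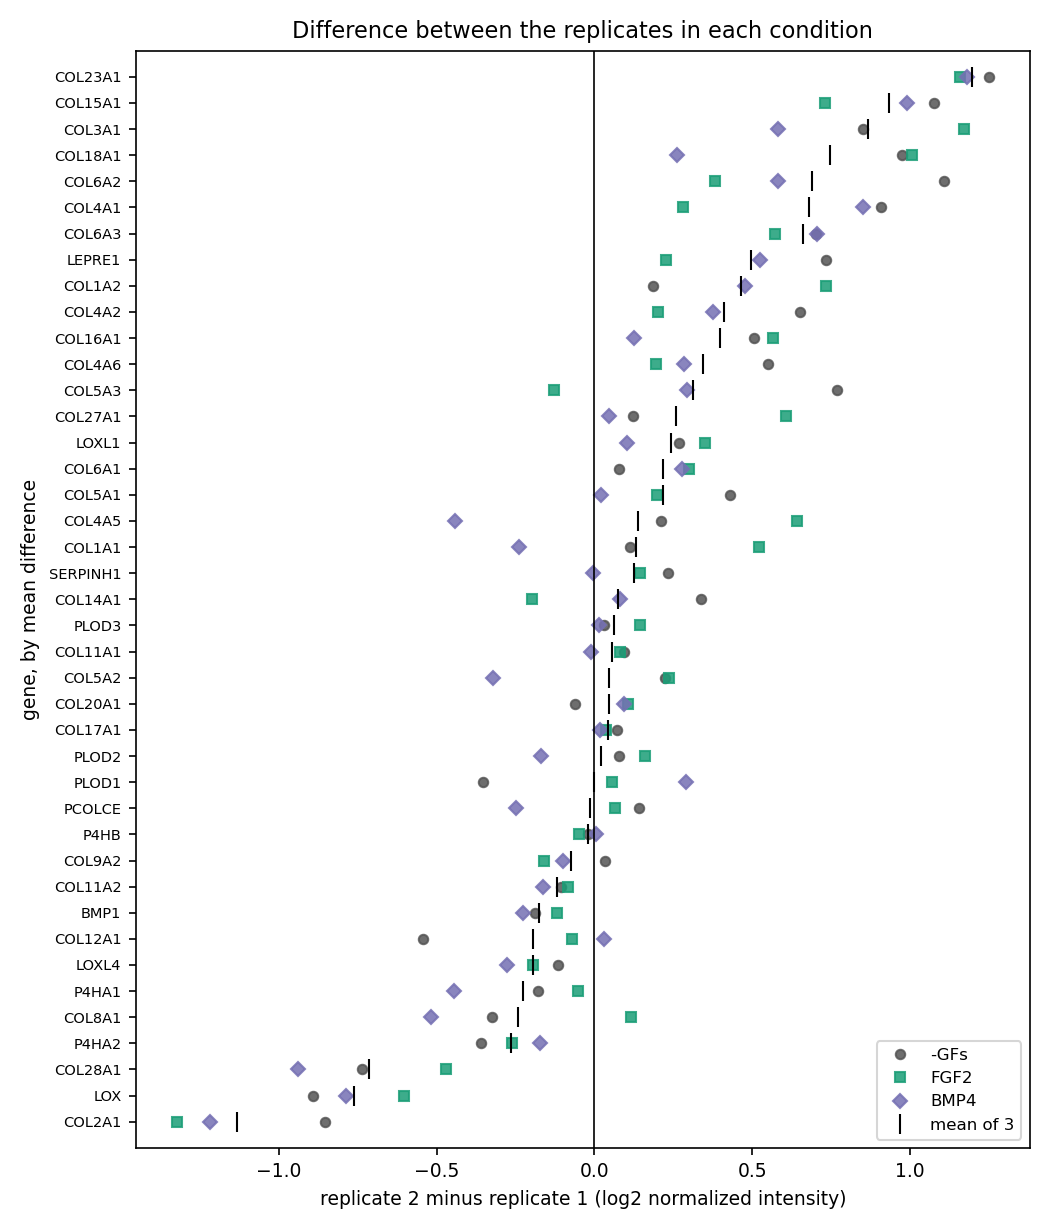
Log2 difference of replicate 2 minus replicate 1 for the 41 tested genes in each of the 3 groups. COL23A1 lies at 1.16 to 1.25 and COL2A1 at -0.85 to -1.32 in the 3 groups.

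Several genes were read by more than 1 passing probe, which shows how well the values held within a gene. Of the 18 such genes, 11 had all probes on the same side of 0 with FGF2 and 15 for the replicate difference. The 3 COL2A1 probes measured -0.47 to -0.07 with FGF2 and -1.13 to -0.77 between the replicates. COL6A3 is the case with the widest spread, -0.40 to 0.46 with FGF2, while its probes both measured above 0 between the replicates (0.47 and 0.66). Probes of COL5A2 (0.19 and 0.19) and P4HA1 (0.12 and 0.13) were close to each other with FGF2, but with BMP4 the COL5A2 probes measured 0.29 and 0.01. The dimmer COL3A1 probe, also detected on all 6 arrays, had a mean replicate difference of 0.00 against 0.87 for the brighter one, and on the BMP4 arrays it was lower in replicate 2 (8.13 and 7.87).

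**Figure D5:**
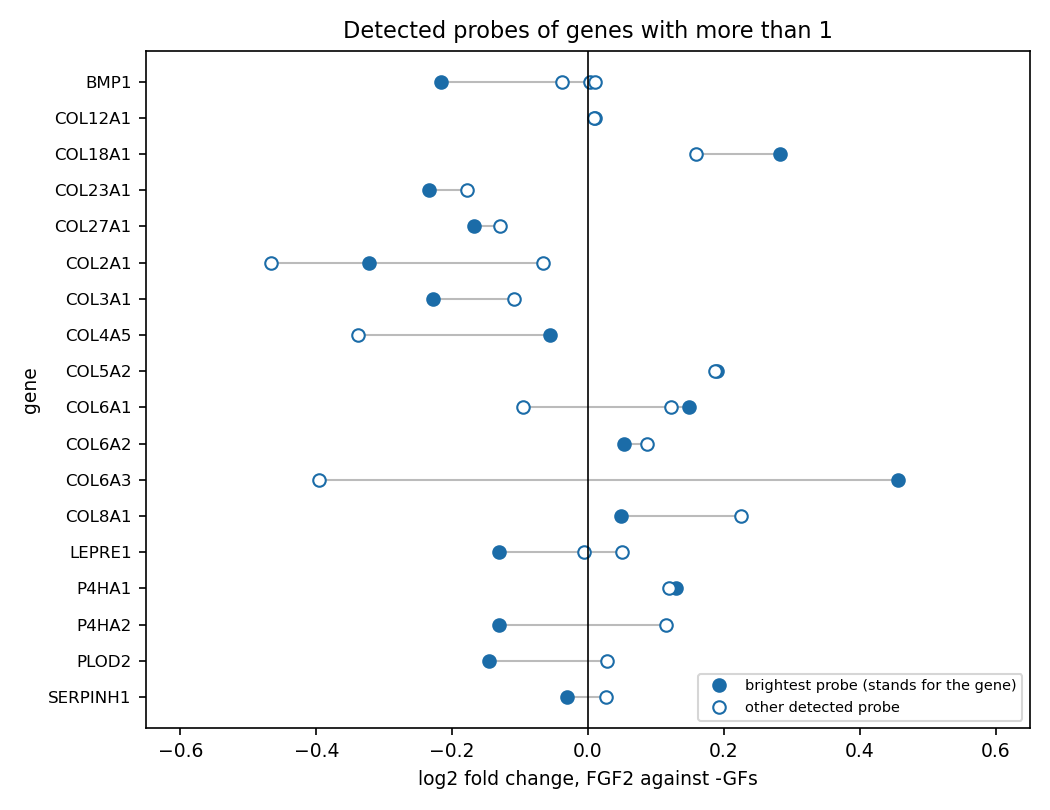
Log2 difference of FGF2 minus -GFs for each passing probe of the genes with more than 1, filled for the brightest probe. COL6A3 spans -0.40 to 0.46.

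Related genes outside the rule were followed in 2 lists. Of 28 genes of collagen folding, secretion and trimming, all on the array, 21 were tested, with a median of -0.07 with FGF2 and 0.07 with BMP4. HSPA5, the endoplasmic reticulum chaperone BiP, passed the threshold with FGF2, and 0 were lower or passed with BMP4, beside 6.03% of all genes higher and 5.77% lower with FGF2. This count of 1 is no more than the share over all genes, and HSPA5 is described because the rule names every gene that passed. At an unadjusted p under 0.05 limma gave 2 of the 21 with FGF2 and 0 with BMP4, and limma with the block 6 and 2, against 23.3% and 1.81% of all genes in limma and 40.6% and 7.04% with the block. The HSPA5 probe was dim and not detected in -GFs, at intensities of 190.5 and 159.2, against 267.7 and 260.7 with FGF2 and 213.8 and 213.9 with BMP4. The mean log2 values were 7.43 ± 0.10, 8.07 ± 0.01 and 7.75 ± 0.08 (SD, n = 2 each), and with FGF2 HSPA5 was at least 1.4-fold above the detection limit of -GFs (adjusted p = 0.0521). It passed the filter through the FGF2 and BMP4 arrays alone, which favours this direction. The measured difference was 0.64 on the log2 scale, and 1.503 with neqc. With -GFs at background, neither value gives the size of the change, and only the bound can be read. Both FGF2 arrays lay above the other 4. With the block that pairs the arrays it had 0.00182, in a range over the alternatives of 0.00182 to 0.27, and the call was lost without -GFs replicates 1 and 2 (0.118 and 0.183) and without FGF2 replicates 1 and 2 (0.225 and 0.27). The block also called CREB3L1 (0.34), CREB3L2 (0.52) and HSP90B1 (0.37) higher and LEPREL1 (-0.36) and LEPREL2 (-0.43), both prolyl 3-hydroxylases, lower. Apart from HSPA5, whose direction the filter favoured, that made 3 higher and 2 lower of the 21 tested, beside blocked shares over all genes of 18.1% and 19.6%, so neither count stands out. Without the block, the 5 genes named with HSPA5 had adjusted p-values of 0.328, 0.196, 0.722, 0.468 and 0.378, and with it 0.0737, 0.00779, 0.0972, 0.0804 and 0.055. In replicates 1 and 2, HSP90B1 measured 0.01 and 0.73, LEPREL1 -0.19 and -0.54 and LEPREL2 -0.08 and -0.77, so that these differences lay mostly in replicate 2. CREB3L1 (0.29 and 0.39) and CREB3L2 (0.44 and 0.61), transcription factors of the secretory pathway, were alike in both.

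In the 9 other settings run with the block, HSPA5 was called in 9 (adjusted p = 0.000653 to 0.0231), CREB3L2 in 8, LEPREL2 in 6, LEPREL1 in 5, and CREB3L1 and HSP90B1 in 4 each. The CREB3L2 call was lost without -GFs replicate 2 (0.11). Without -GFs replicate 2 and without FGF2 replicate 2 the calls of HSP90B1 (0.876 and 0.699), LEPREL1 (0.282 and 0.69), LEPREL2 (0.772 and 0.456) and CREB3L1 (0.251 and 0.348) were all lost. Those of CREB3L1 and LEPREL1 were also lost without -GFs replicate 1 (0.237 and 0.171), and that of CREB3L1 without BMP4 replicate 2 (0.113). Among the scalings, HSP90B1 was lost with quantile normalization (0.102), neqc (0.25) and median scaling (0.227), CREB3L1 with median scaling (0.218), and LEPREL1 and LEPREL2 with neqc (0.181 and 0.191).

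Of 25 partners of fibrils and collagen receptors, all on the array, 19 were tested and 0 passed with FGF2 or BMP4 in limma, beside 6.03% of all genes higher and 5.77% lower with FGF2 and 0.00842% and 0% with BMP4. The medians were -0.01 and 0.03. With the block that pairs the arrays, FGF2 gave ITGB1 (0.61), the beta chain of collagen-binding integrins, as higher (adjusted p = 0.218 without the block and 0.00504 with it). ITGB1 also measured 0.50 with BMP4 (0.322 with the block), and FGF2 against BMP4 was 0.11 (0.634 with the block). FMOD (-0.37), ELN (-0.36), FBLN1 (-0.56) and DDR1 (-0.39) were called lower, with blocked adjusted p-values of 0.051, 0.0587, 0.00532 and 0.046. These counts of 1 higher and 4 lower of 19 are near the blocked shares over all genes, 18.1% higher and 19.6% lower, or below them. In replicates 1 and 2 ITGB1 measured 0.34 and 0.87, FMOD -0.49 and -0.25, ELN -0.25 and -0.47, FBLN1 -0.48 and -0.64 and DDR1 -0.22 and -0.56, so that each had 1 sign in both. In the 9 other settings run with the block, FBLN1 was called in 9 (adjusted p = 0.00257 to 0.0607), ITGB1 and FMOD in 7, DDR1 in 6 and ELN in 5. Without -GFs replicate 2 and without FGF2 replicate 2 the calls of ITGB1 (0.142 and 0.118), ELN (0.395 and 0.318) and DDR1 (0.429 and 0.339) were lost. That of FMOD was lost without -GFs replicate 1 (0.35) and FGF2 replicate 1 (0.244), that of ELN also without -GFs replicate 1 (0.102), and those of ELN and DDR1 with neqc (0.156 and 0.12). The lower genes encode a fibril-binding proteoglycan, elastin, an elastic fibre protein and a collagen receptor kinase. With BMP4 the block called 0 genes of either list. At an unadjusted p under 0.05 limma gave 0 of the 19 with either factor, and limma with the block 5 with FGF2 and 3 with BMP4, beside the same shares of all genes.

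The promoters were searched for short motifs as a description. RefSeq (build GRCm38.p6) gave promoters, 250 bases before to 50 after the start, for 41 of the 55 genes and for 32 of the 41 tested, which have 35 promoters between them. Motifs were searched on both strands. GGGCGG (SP1) was in 26 of the 35 (74.3%), against 35.7% of all 32851 promoters and 63.1% of the 9686 promoters of tested genes. TATAAA was in 14.3%, against 13.6% and 7.3%, CCAAT in 37.1%, against 37.4% and 37.6%, and ACGTG, which also lies within CACGTG, in 25.7%, against 19.6% and 25.8%. The remaining motifs were in few promoters, both of the 35 and of tested genes, and counts so small give no result about the 35. TGANTCA (AP-1) was found in COL6A1 alone (2.86%, against 7.81% and 5.29%), CCGGAAGT (ETS) in P4HB alone (2.86%, against 3.89% and 8.33%) and CACGTG (E-box) in 0, against 7.15% and 9.98%. GCGNGGGCG (EGR) was in COL4A1, COL4A2 and COL8A1 (8.57%, against 5.55% and 10.4%). COL4A1 and COL4A2 are read from opposite strands of chromosome 8 with starts at 11312826 and 11312805, so their windows overlap and count the same bases in each. ACGTG, marked in the PLOD3 stretch, was also in the promoters of COL1A2, COL5A1, COL11A2, P4HA1, P4HA2, P4HB, LEPRE1 and SERPINH1, of which none passed with FGF2.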

How the data were processed

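The deposited table holds mean bead intensities without normalization and detection p-values for Illumina mouse whole-genome arrays, made by the authors with GenomeStudio 2011.01 per the submitters' processing notes. The 9 unheaded columns and 6 leftover lines of the table were not used. Intensities were normalized by cubic spline (452 quantiles) and log2 transformed. Probes detected (p under 0.05) throughout any group were kept, and the probe with the largest mean stood for a gene. The 3 groups were compared in limma 3.58.1 (R 4.3.3; lmFit, eBayes) over all 11872 genes, with Benjamini-Hochberg adjustment and a threshold of 0.1; the methods also ask an absolute log2 fold change over 1. The replicate number was no term of the model; as a block it was an alternative. The labels give the pairing, and the deviations of the replicates over all genes correlated at 0.602 (-GFs and FGF2), 0.741 (-GFs and BMP4) and 0.579 (FGF2 and BMP4). Across genes these are no independent replicates.

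Named were genes passing in any comparison with or without the block, every processing gene, the 5 brightest, those detected in only some groups, and genes of the related lists passing against -GFs without the block. Related genes called only with the block, EGR1, ID1, ZNHIT1, and COL4A1, COL4A2, COL8A1, COL28A1, COL5A2 and the chains named for their replicate difference were chosen after their values were seen. Members and lists were chosen with earlier results of these data known. Folds against a group without detection were computed against its lowest detected level. Alternatives were other normalizations (quantile, neqc with offset 16, median scaling), filters, probe choices, the block, eBayes with trend and robust, an unpaired t-test (which the study names for its other data, not for the arrays), the fold limit, and leaving out each array. Symbols were matched through RefSeq (GRCm38.p6). The code was tested on simulated data.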

Additional observations from a re-analysis of the deposited data

How the results depend on the processing

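Over the alternatives, 722 of 770 values of the 41 genes kept their direction for FGF2 against -GFs, 701 of 770 for BMP4 against -GFs and 727 of 770 for FGF2 against BMP4, and no call reversed. The block, eBayes with trend and robust, the t-test and the fold limit leave a gene's difference unchanged. Part of this agreement was therefore fixed in advance. Only 14, 10 and 15 of the 41 genes kept their direction under every alternative in the 3 comparisons. The count of 1 gene higher with FGF2 than in -GFs was 0 with neqc, 0 with median scaling, 0 with the t-test, 0 with the fold limit, 2 with the replicate block and 0 to 0 without each array in turn. The count of 1 gene higher with FGF2 than with BMP4 was 0, 0, 0, 0, 2 and 0 to 0 under the same alternatives. An unpaired t-test, an approximation that 2 arrays per group support poorly, called 0 of all genes in either FGF2 comparison and 1 for BMP4 against -GFs after adjustment (PLOD3 0.272 and HSPA5 0.263 with FGF2 against -GFs). At an unadjusted p under 0.05 it gave 3 of the 41 genes for FGF2 against -GFs (COL9A2, P4HB and PLOD3), 2 for BMP4 against -GFs (COL17A1 and P4HB) and 2 for FGF2 against BMP4 (COL17A1 and PLOD3), against 1784, 434 and 1806 of all genes, and of the related lists 1 gene with FGF2 and 0 with BMP4. COL17A1 passed the filter through the BMP4 arrays alone, which favours its direction in both comparisons, so it is no result here. The counts of 0 lower genes were 2 (FGF2 against -GFs) and 3 (FGF2 against BMP4) with the block. For BMP4 against -GFs both counts were 0 under every alternative run.

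Combinations of the block with other settings, and the settings tried for the replicate difference, were chosen after seeing the data. With the block, the 2 genes higher with FGF2 than in -GFs became 1 with median scaling and 1 to 3 without each array (1 without -GFs replicate 1), and the 2 lower genes became 1 with quantile normalization, 1 with neqc, 5 with median scaling and 1 to 6 without each array (1 without -GFs replicate 2, 6 without FGF2 replicate 2). Against BMP4, the 2 higher genes became 1 with neqc and 1 to 4 without each array (4 without FGF2 replicate 2, 1 without BMP4 replicate 2), and the 3 lower genes 1 to 4 without each array (1 without BMP4 replicate 1). The cause was not tested. Leaving out an array leaves its group with 1 array, which is assumed to vary like the other groups. The dim probes of COL9A2, HSPA5, COL11A1, COL14A1 and COL17A1 lie near the detection limit, where background limits the size of a change.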
